A study of Mus musculus with 20 samples.

Results

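The family of miR-15, miR-16, miR-195 and miR-497 is a set of microRNAs (miRNAs) that carry the same bases at positions 2 to 8, the seed through which a miRNA pairs with its target mRNAs. It was followed here through 8 mature forms chosen by name, out of 1481 features in the deposited tables: mmu-miR-15a-5p, mmu-miR-15b-5p, mmu-miR-16-5p, mmu-miR-195a-5p, mmu-miR-497a-5p and mmu-miR-322-5p, which share the seed, and mmu-miR-15b-3p and mmu-miR-322-3p, which come from the other arm of the hairpins of miR-15b and miR-322. All 8 were present in every table and had reads in all 20 libraries. The species prefix mmu (mouse) is left out from here on.

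A miRNA is cut from a hairpin in the primary transcript, and the 5p or 3p arm of the hairpin is loaded into an Argonaute protein that represses mRNAs paired with the seed. The miR-15/16 family is known for repressing cell cycle and survival genes, among them cyclins and Bcl2. Its members have been studied in ischaemia of heart and brain. Rodent miR-322 is the counterpart of human miR-424.

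The libraries were small RNA libraries of primary neurons from mouse cortices at embryonic day 15, grown for 7 days. All samples carry the strain label C57BL/6N-Cdr1asem1Nikr, wild types included, with the genotype WT or ciRS-7 KO. The locus named in the strain label, Cdr1as, is that of the circular RNA ciRS-7, a brain transcript with many sites for miR-7 and one for miR-671. Normoxic cultures had 12 h at 5% CO2 in medium holding 25 mM glucose and 0.2 mM pyruvate. The others had 12 h of oxygen-glucose deprivation (OGD), at 1% O2 and 5% CO2 with neither sugar nor pyruvate added. OGD is used as a model of ischaemia in a dish. The 4 groups (wild type in normoxia, wild type after OGD, knockout in normoxia, knockout after OGD) held 5 biological replicates each. ciRS-7 is no miRNA and has no value in these tables, so the genotype labels were not checked here. Cultures were measured as a whole, so fewer cells of a type and less RNA per cell cannot be told apart.

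The sequences show what the members share and where they part. The 8 forms matched RefSeq mature sequences (GRCm38.p6), printed 5′ to 3′ with the seed, bases 2 to 8, in capitals.
miR-16-5p: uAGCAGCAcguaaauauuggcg
miR-195a-5p: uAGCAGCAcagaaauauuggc
miR-15a-5p: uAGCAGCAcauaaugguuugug
miR-15b-5p: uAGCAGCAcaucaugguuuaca
miR-497a-5p: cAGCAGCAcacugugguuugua
miR-322-5p: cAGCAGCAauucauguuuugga
miR-15b-3p: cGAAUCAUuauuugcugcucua
miR-322-3p: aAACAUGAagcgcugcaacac
The first 6 share the seed AGCAGCA, and the 3p forms have seeds of their own. Outside the seed the nearest pair is miR-16-5p and miR-195a-5p, which differ at 2 of 21 bases (G10A and U11G, with the base of miR-16-5p first and positions counted from the 5′ end). miR-15a-5p and miR-15b-5p differ at 4 of 22 bases (A12C, G20A, U21C and G22A). The farthest pair, miR-16-5p and miR-497a-5p, differs at 11 of 22. How the authors counted reads that match more than 1 form is not given in the sources used here, so the split of reads between the nearest pairs is uncertain.

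The hairpins lie in 4 places of the genome (GENCODE M21, GRCm38). Mir15a (chr14:61632027-61632110, minus strand) and Mir16-1 (chr14:61631880-61631972, minus strand) are 54 bases apart within the long noncoding gene Dleu2, Mir15a in an intron and Mir16-1 with 13 of its 93 bases in an annotated exon. Mir15b (chr3:69009772-69009835, plus strand) and Mir16-2 (chr3:69009902-69009996, plus strand) are 66 bases apart in an intron of Smc4, which encodes a condensin subunit. Mir497 (chr11:70234717-70234800, plus strand) and Mir195a (chr11:70235042-70235135, plus strand) are 241 bases apart and lie in no annotated gene other than miRNA genes. Mir322 (chrX:53054255-53054349, minus strand) also lies in no such gene, and belongs to a cluster with the hairpins of miR-503, miR-351, miR-542 and miR-450. miR-16-5p is the same sequence from Mir16-1 and Mir16-2, so its reads cannot be assigned to a locus.

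Levels are given as CPM, reads scaled to a common library total with the authors' factors, from whole reads worked out of the deposited values. The libraries held 1160582 to 12477032 miRNA reads, with medians of 8208163 and 8854518 in normoxic wild-type and knockout cultures and 1992517 and 2552651 after OGD, so OGD libraries were shallower in both genotypes. A floor of 3 reads stands for 0.249 to 2.55 CPM and covers counting error only, since the labels name no molecular identifiers and reads may be copies of one molecule. miR-210-3p, induced by hypoxia in many cell types, went from 18.3 to 108 CPM on average after OGD in wild-type and from 26.0 to 110 CPM in knockout cultures. In OGD wild-type replicate 5 it was at 47.2 CPM against 111 to 128 CPM in the other 4, and that library also held the highest miR-195a-5p (111 CPM) and miR-322-3p (285 CPM) of its group. Without it, the log2 change after OGD was 0.46 for miR-195a-5p (limma adjusted p = 0.0192), and miR-15a-5p (0.80) and miR-497a-5p (0.48) were no longer called (limma adjusted p = 0.0677 and 0.0512). Of the marker miRNAs checked, 6 for neurons summed to 292975 to 389896 CPM in the 20 libraries and 3 for myeloid cells to 0.0 to 4.39 CPM. The markers of oligodendrocytes summed to 5.86 to 15.3, those of smooth muscle and fibroblasts to 29.9 to 64.4, and those of endothelium to 269 to 393 CPM. In normoxia and after OGD, those of oligodendrocytes were at 5.86 to 12.0 and 9.54 to 14.1 in wild type. In knockout cultures they were at 7.74 to 11.8 and 10.8 to 15.3. In the same order, smooth muscle and fibroblasts gave 34.0 to 42.6, 35.1 to 55.6, 29.9 to 52.8 and 36.8 to 64.4. Endothelium gave 310 to 387, 294 to 381, 314 to 393 and 269 to 343. Their part in the family's change was not tested. Replicate 5 of normoxic wild type stood apart from the other 4 of its group in several members. Without it, the median log2 change of the 8 members after OGD in wild type was 0.37 in place of 0.47, and that of all features was 0.32 with it and without it. The summed level of the 6 seed forms was then higher by 0.58 in place of 0.67 on the log2 scale, and by 0.32 in place of 0.42 with miR-16-5p left out of the sum.

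The family was a small part of the miRNA pool, and miR-16-5p made up most of it. The 6 forms with the shared seed together took 0.159% to 0.213% of all CPM in normoxic wild-type cultures, 0.286% to 0.324% after OGD, 0.178% to 0.224% in normoxic knockout cultures and 0.271% to 0.398% in knockout cultures after OGD. miR-16-5p alone was 81.4% to 86.1% of this sum in the 20 libraries. By mean CPM over the 20 libraries it ranked 48 of 1481 features, and the other 7 members ranked between 156 (miR-322-3p) and 308 (miR-15b-3p).

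In normoxic wild-type cultures the order of the mean levels ran from miR-16-5p (1597 ± 218 CPM, SD, n = 5) through miR-322-3p (255 ± 24.6), miR-15b-5p (154 ± 25.4), miR-195a-5p (60.3 ± 3.72), miR-322-5p (54.7 ± 11.7), miR-497a-5p (43.3 ± 7.18) and miR-15a-5p (36.7 ± 12.2) to miR-15b-3p (32.5 ± 6.95). The libraries of the first 4 did not overlap between neighbours in this order, whereas those of the last 5, from miR-195a-5p down, overlapped from each to the next. miR-322-3p, the arm without the family seed, stood above miR-322-5p in every library of all 4 groups. miR-15b had the opposite order, with miR-15b-5p above miR-15b-3p in every library. Levels of different miRNAs also depend on how well each is captured in a small RNA library, which was not tested.

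**Figure D1:**
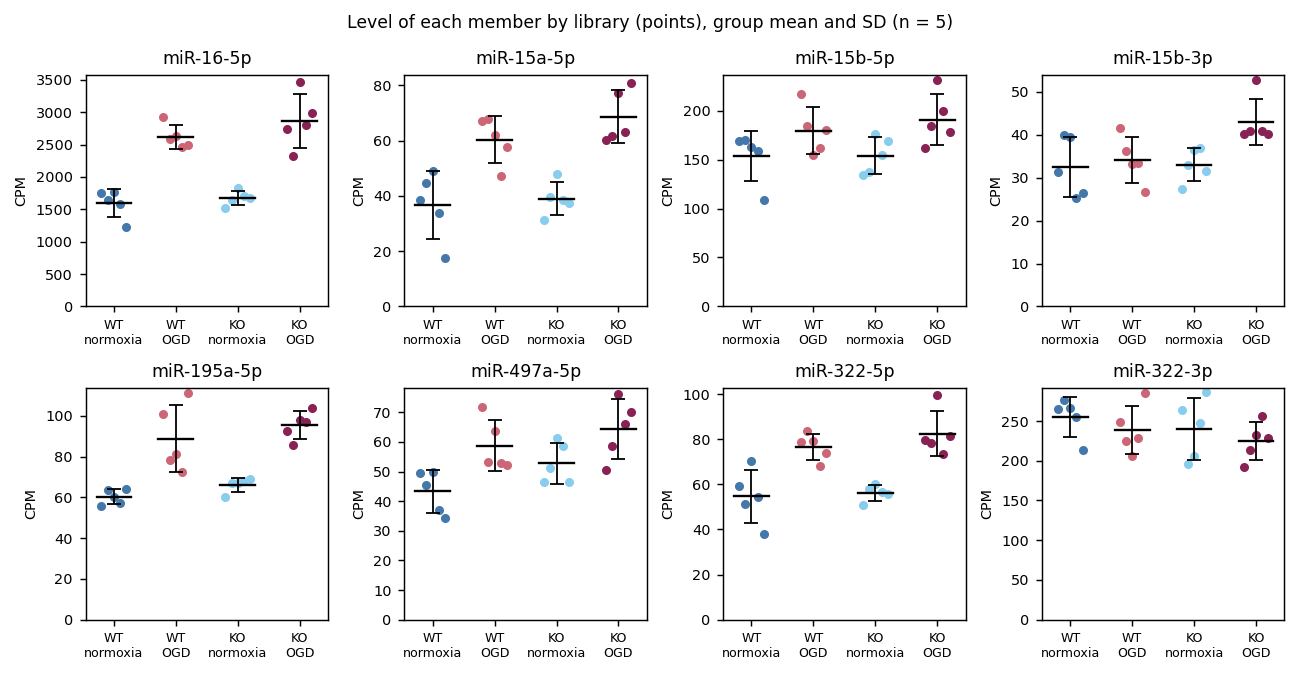
CPM of each of the 8 members (one panel each, linear axes from 0) in the 20 libraries; points are libraries, the bar is the group mean and the error bar the SD (n = 5). miR-16-5p ran from 1233 to 1773 CPM in normoxic wild type and from 2466 to 2920 after OGD, while miR-322-3p had overlapping levels in the 4 groups.

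The first question is what 12 h of OGD did to the family in wild-type neurons. By CPM, 5 of the 8 members were called higher and 0 lower (limma on log2(CPM + 0.5), two-sided, Benjamini-Hochberg adjusted over 1478 features, threshold 0.05). The 5 were miR-16-5p, miR-15a-5p, miR-195a-5p, miR-322-5p and miR-497a-5p, all of them 5p forms with the family seed. Over all features, 18.7% were called higher and 4.4% lower. Of the 423 features with a mean log2 level of at least 3, as all 8 members have, 143 were called higher and 57 lower. The median log2 change of the 8 members was 0.47, against 0.32 for all features and 0.22 for the 423 features with a mean log2 level of at least 3. Of the 5, only miR-16-5p was still called higher when the median feature was held still, or when all libraries were thinned to the smallest, and with each library's median level held still none was (miR-16-5p 0.16, limma adjusted p = 0.354) and miR-195a-5p, miR-322-5p and miR-497a-5p turned slightly negative.

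miR-16-5p, the mature form shared by the Dleu2 and Smc4 loci, measured 1755, 1642, 1773, 1580 and 1233 CPM in the normoxic wild-type replicates 1 to 5. After OGD it measured 2920, 2582, 2626, 2466 and 2496 CPM. Each OGD library stood above every normoxic one. The log2 change was 0.72 (SE 0.11, limma adjusted p = 4.16e-05), a 1.65-fold higher level, and without normoxic replicate 5 it was 0.63 (limma adjusted p = 9.19e-06).

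miR-15a-5p, the partner of miR-16 in Dleu2, measured 38.5, 44.6, 48.9, 34.0 and 17.4 CPM in normoxia and 67.3, 67.9, 62.0, 47.3 and 57.7 CPM after OGD. The groups touched through OGD replicate 4, and 4 of 5 OGD libraries stood above all normoxic ones. Its log2 change was 0.78 (SE 0.22, limma adjusted p = 0.0155). Normoxic replicate 5, the lowest, held 46 reads of it, and without that library the change was 0.54 (limma adjusted p = 0.0126). The call was lost when OGD replicate 1, 2, 3 or 5 was left out (limma adjusted p up to 0.0677).

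The forms of the Mir15b hairpin, which shares the Smc4 intron with Mir16-2, were not called in wild type. miR-15b-5p measured 169, 170, 163, 159 and 109 CPM in normoxia and 217, 184, 155, 162 and 180 CPM after OGD. Normoxic replicate 5 was again the lowest library, and the other 9 overlapped. The log2 change was 0.23 (SE 0.14, 95% interval -0.06 to 0.53, limma adjusted p = 0.263), and without normoxic replicate 5 it was 0.11 (limma adjusted p = 0.501). miR-15b-3p measured 31.3, 40.0, 39.4, 25.3 and 26.4 CPM in normoxia and 41.5, 36.2, 33.1, 33.4 and 26.6 CPM after OGD, with a log2 change of 0.08 (SE 0.18, 95% interval -0.29 to 0.45, limma adjusted p = 0.76), and of 0.017 without normoxic replicate 5.

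The forms of the chromosome 11 cluster were both called higher by CPM. miR-195a-5p, which nearly repeats the sequence of miR-16-5p, measured 55.9, 63.6, 60.4, 57.2 and 64.2 CPM in normoxia and 101, 78.3, 81.5, 72.3 and 111 CPM after OGD. The groups did not overlap, and the OGD libraries were spread more widely (SD 16.5 against 3.72 CPM). Its log2 change was 0.54 (SE 0.14, limma adjusted p = 0.00943). miR-497a-5p measured 49.6, 45.5, 50.0, 37.2 and 34.4 CPM in normoxia and 71.8, 53.4, 63.7, 52.8 and 52.2 CPM after OGD. These groups did not overlap either, but by a narrow margin, and the log2 change of 0.44 (SE 0.16, limma adjusted p = 0.0495) lay at the threshold. It was not called in 8 of the 10 fits that left out 1 library, normoxic replicate 5 among them (log2 change 0.36, limma adjusted p = 0.0809).

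The X-linked Mir322 hairpin gave 1 called arm; the ratio of its arms is tested below. miR-322-5p, the arm with the family seed, measured 59.1, 51.5, 70.3, 54.2 and 38.2 CPM in normoxia and 78.6, 83.6, 79.0, 68.1 and 73.8 CPM after OGD. Normoxic replicate 3 reached into the OGD range, and 4 of 5 OGD libraries stood above it. The log2 change was 0.51 (SE 0.16, limma adjusted p = 0.0243), 0.39 (limma adjusted p = 0.0366) without normoxic replicate 5, and it was not called in 5 of the 10 fits that left out 1 library. miR-322-3p measured 265, 276, 267, 255 and 213 CPM in normoxia and 249, 225, 206, 229 and 285 CPM after OGD. The groups overlapped, and the log2 change was -0.10 (SE 0.12, 95% interval -0.35 to 0.15, limma adjusted p = 0.58), and -0.16 without normoxic replicate 5.

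The second comparison is the same treatment in neurons without ciRS-7. By CPM, 5 of the 8 members were again called higher and 0 lower (limma, adjusted over 1479 features), where 18.8% of all features were called higher and 5.75% lower. Of the 423 features with a mean log2 level of at least 3, 156 were called higher and 70 lower. The 5 were miR-16-5p, miR-15a-5p, miR-195a-5p, miR-322-5p and, in place of miR-497a-5p, miR-15b-3p. The median log2 change of the 8 members was 0.45, against 0.24 for all features and 0.20 for those with a mean log2 level of at least 3. With the median feature held still, or with thinned libraries, the first 4 were still called. With each library's median level held still none of the 5 was called (limma adjusted p from 0.0805 to 0.949), and miR-15b-3p turned to -0.14.

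In knockout cultures miR-16-5p measured 1527, 1642, 1836, 1710 and 1679 CPM in normoxia and 2744, 2319, 3471, 2804 and 2986 CPM after OGD. The groups lay well apart, and OGD replicate 3 was the highest of the 20 libraries. The log2 change was 0.76 (SE 0.10, limma adjusted p = 1.52e-05). miR-15a-5p measured 31.3, 39.6, 48.1, 38.7 and 37.5 CPM in normoxia and 60.2, 61.8, 77.4, 63.2 and 80.8 CPM after OGD, again without overlap. Its log2 change was 0.81 (SE 0.13, limma adjusted p = 0.000196), the largest among the 8 members in either genotype, and it was called in all 10 fits that left out 1 knockout library.

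miR-15b-5p measured 134, 137, 176, 155 and 169 CPM in normoxic knockout cultures and 162, 184, 231, 200 and 178 CPM after OGD. Normoxic replicates 3 and 5 lay within the OGD range. The log2 change of 0.31 (SE 0.11) did not pass the threshold (limma adjusted p = 0.0584), and it did so without normoxic replicate 3 (limma adjusted p = 0.0442) or without OGD replicate 1 (limma adjusted p = 0.0366). It was also called on the deposited values (limma adjusted p = 0.0125), among features with a mean log2 level of at least 3 (0.0334) and by limma voom (0.0343). It was not called in a fit over all 20 libraries (limma adjusted p = 0.0952), with thinned libraries (0.28, limma adjusted p = 0.173) or with the median feature held still (0.11, limma adjusted p = 0.602), and was negative with the library median held still (-0.20). miR-15b-3p measured 27.4, 32.9, 36.5, 37.0 and 31.5 CPM in normoxia and 40.3, 40.8, 52.7, 41.0 and 40.1 CPM after OGD. The groups did not overlap, with OGD replicate 3 far above the other 4. Its log2 change was 0.37 (SE 0.13, limma adjusted p = 0.042) and was not called in 5 of the 10 fits that left out 1 library (limma adjusted p up to 0.0901). Of 10 other ways of processing the data, 3 lost this call with the sign kept and 2 turned the sign.

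miR-195a-5p measured 60.3, 66.9, 67.3, 67.9 and 69.1 CPM in normoxic knockout cultures and 92.7, 85.9, 98.1, 96.9 and 104 CPM after OGD, without overlap. Its log2 change was 0.52 (SE 0.10, limma adjusted p = 0.000612). miR-497a-5p measured 46.6, 51.1, 61.4, 58.8 and 46.4 CPM in normoxia and 50.4, 58.8, 76.2, 66.0 and 70.2 CPM after OGD. The groups overlapped, and the log2 change was 0.28 (SE 0.13, limma adjusted p = 0.149). On the deposited values taken as they stand, miR-497a-5p was called in knockout cultures too (0.32, limma adjusted p = 0.0378). Its log2 change there was 0.081 with the median feature held still and 0.066 with libraries thinned to the smallest (limma adjusted p = 0.75 and 0.80), and it was negative with the library median held still (-0.23).

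miR-322-5p measured 50.7, 58.1, 60.2, 56.7 and 55.6 CPM in normoxic knockout cultures and 79.7, 78.2, 99.7, 73.3 and 81.4 CPM after OGD, without overlap. Its log2 change was 0.54 (SE 0.11, limma adjusted p = 0.00121). miR-322-3p measured 264, 196, 206, 247 and 287 CPM in normoxia and 192, 213, 233, 256 and 229 CPM after OGD. The groups overlapped, and the log2 change was -0.09 (SE 0.12, limma adjusted p = 0.632).

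The OGD and normoxic libraries did not overlap for 3 of the 8 members in wild type (miR-16-5p, miR-195a-5p and miR-497a-5p) and in 5 of 8 in knockout cultures. Over all features, the OGD libraries stood entirely above the normoxic ones for 13.5% in wild type and 15.3% in knockout cultures. These shares include many rare features and were not taken among features as abundant as the members.

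**Figure D2:**
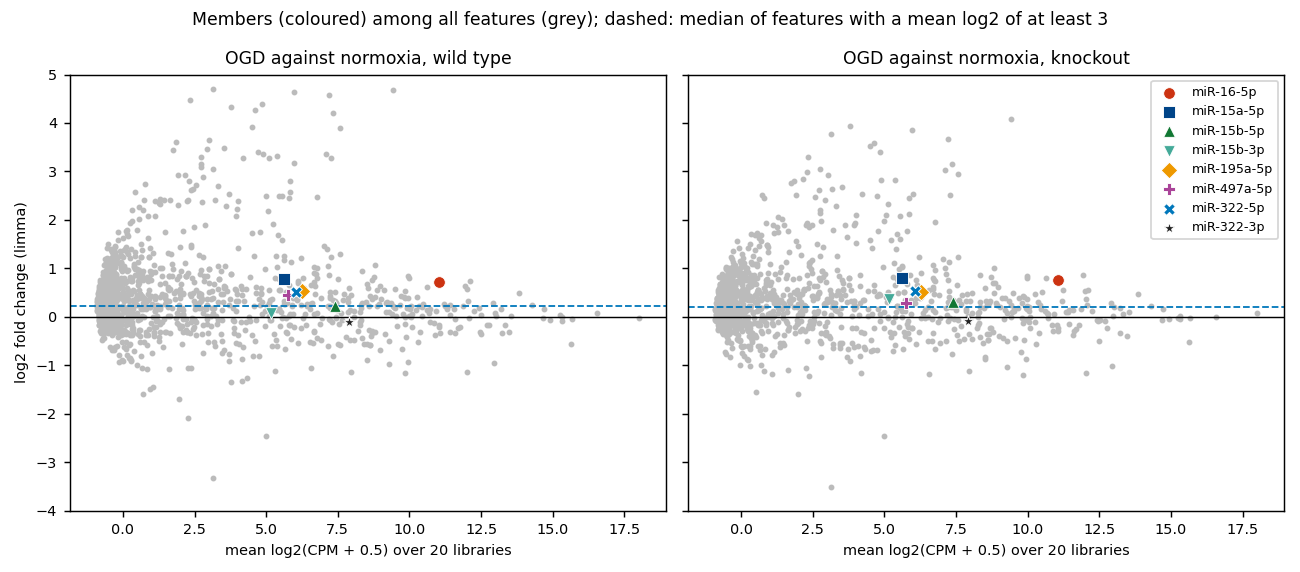
Log2 fold change after OGD (limma, vertical axis) against mean log2(CPM + 0.5) over 20 libraries (horizontal axis) for all features tested (grey) and the 8 members (coloured), wild type on the left and knockout on the right. The dashed line marks the median change of the features with a mean log2 level of at least 3 (0.22 and 0.20); miR-16-5p lay at 0.72 and 0.76 and miR-322-3p at -0.10 and -0.09.

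How many of these calls stand depends on the scaling of the libraries. The median of each library's log2 levels, over features with a mean of at least 3, was higher by 0.56 in wild-type and 0.51 in knockout OGD libraries. The median of the single features' deviations from their own means moved less, by 0.19 and 0.20. With this median feature held still, an alternative added after the data were seen, 7 of the 8 members in wild type kept the sign they had by CPM and miR-15b-3p turned to -0.11. miR-16-5p was called higher in wild type (log2 change 0.53, limma adjusted p = 0.000518), and miR-15a-5p (0.59), miR-195a-5p (0.35), miR-322-5p (0.32) and miR-497a-5p (0.25) were not (limma adjusted p = 0.0718, 0.101, 0.171 and 0.303).

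In knockout cultures on that scale, miR-15a-5p (log2 change 0.61), miR-16-5p (0.57), miR-322-5p (0.35) and miR-195a-5p (0.33) were called higher (limma adjusted p = 0.00198, 0.000283, 0.0295 and 0.0219). With each library's median level held still, a stronger correction, none of the members was called higher in either genotype. miR-16-5p then stood at 0.16 and 0.25 and miR-15a-5p at 0.22 and 0.30 in wild type and knockout (limma adjusted p = 0.354, 0.0805, 0.528 and 0.0954). miR-195a-5p stood at -0.02 and 0.01, and miR-322-5p at -0.05 and 0.03.

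miR-322-3p, not called by CPM, was called lower with the library median held still, by a log2 change of -0.66 in wild type (limma adjusted p = 0.000291) and -0.60 in knockout cultures (0.00117), and by quantile normalization (-0.35 and -0.33, limma adjusted p = 0.0454 and 0.0497). miR-15b-3p was called lower in wild type by quantile normalization alone (-0.58, limma adjusted p = 0.0298). With the median feature held still, miR-322-3p was at -0.29 and -0.28 and was not called (limma adjusted p = 0.0759 and 0.107). By quantile normalization miR-16-5p was called higher in both genotypes (log2 change 0.62 and 0.65, limma adjusted p = 9.03e-05 and 0.00015). miR-16-5p and miR-15a-5p had a positive change under all 4 scalings in both genotypes.

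**Figure D3:**
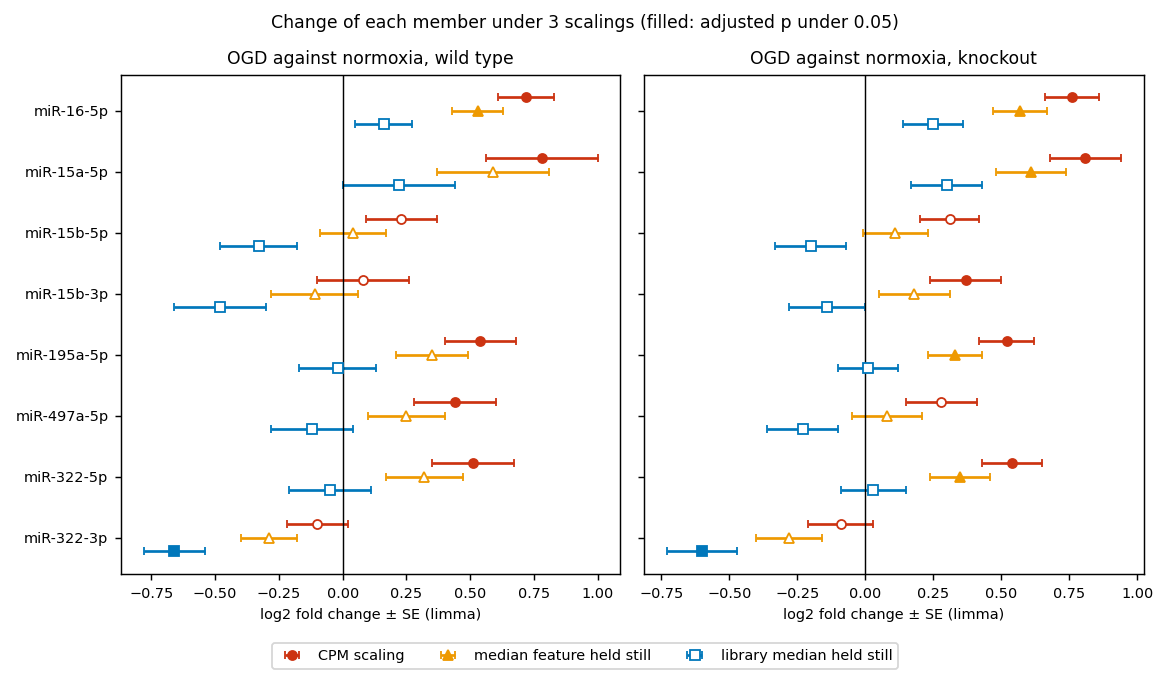
Log2 fold change after OGD with its SE (limma, horizontal axis) for each member under 3 scalings, in wild type (left) and knockout (right); filled symbols have an adjusted p under 0.05. miR-16-5p stayed filled at 0.53 and 0.57 with the median feature held still, and miR-322-3p was filled on the negative side, at -0.66 and -0.60, with the library median held still.

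Ratios between 2 members of one library do not depend on its scaling. 5 ratios were compared in 4 contrasts (20 exact two-sided permutation tests of 5 against 5 libraries, smallest possible p = 0.00794), and 0 passed the threshold after Benjamini-Hochberg adjustment over the 20. A ratio at this smallest p could pass only if several other tests reached it too. That 0 passed is therefore no sign that the ratios stayed the same. The ratio of miR-15b-5p to miR-16-5p, 2 forms made from the Smc4 intron, was the only one whose groups did not overlap.

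In wild-type cultures the log2 ratio of miR-15b-5p to miR-16-5p was -3.37, -3.27, -3.44, -3.31 and -3.49 in normoxia and -3.75, -3.81, -4.07, -3.92 and -3.79 after OGD. All OGD libraries lay below all normoxic ones, a mean difference of -0.49 (exact permutation p = 0.00794, adjusted 0.0794). In knockout cultures it was -3.51, -3.57, -3.38, -3.46 and -3.31 in normoxia and -4.08, -3.65, -3.90, -3.81 and -4.06 after OGD. The difference was -0.45 with the same p-values, again lower in 5 of 5 OGD libraries. The p is the smallest that 5 against 5 libraries can give. For miR-16-5p the pool also holds the reads of the Dleu2 locus. The ratio of miR-15a-5p, the Dleu2 partner, to miR-16-5p differed by 0.06 in wild type (exact permutation p = 0.778) and by 0.05 in knockout cultures (p = 0.611), and by -0.094 in wild type without normoxic replicate 5, whose ratio of -6.11 was the lowest.

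Between the arms of Mir322, the log2 ratio of miR-322-5p to miR-322-3p was -2.16, -2.41, -1.92, -2.22 and -2.47 in normoxic wild-type libraries and -1.66, -1.42, -1.38, -1.74 and -1.94 after OGD. The groups met at one library each, normoxic replicate 3 and OGD replicate 5, and on the mean log2 scale the 5p level was 0.212 times the 3p level in normoxia and 0.323 times after OGD. The difference was 0.61 (exact permutation p = 0.0159, adjusted 0.0952). In knockout cultures the ratio was -2.37, -1.75, -1.77, -2.11 and -2.36 in normoxia and -1.27, -1.44, -1.22, -1.80 and -1.49 after OGD, a difference of 0.63 (exact permutation p = 0.0238, adjusted 0.0952). Neither difference passed the threshold after adjustment.

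The other ratios moved less. After OGD, that of miR-195a-5p to miR-497a-5p differed by 0.10 in wild type and 0.25 in knockout cultures (exact permutation p = 0.579 and 0.103), and that of miR-15b-5p to miR-15b-3p by 0.15 and -0.07 (p = 0.357 and 0.413). Of the 10 tests between genotypes, that of miR-15b-5p to miR-15b-3p after OGD gave the lowest p, with a ratio lower by 0.24 in knockout cultures (difference -0.24, exact permutation p = 0.0238, adjusted p = 0.0952). The other 9 differed by -0.15 to 0.19, with exact permutation p from 0.23 to 0.96. When all libraries were thinned to 1160582 reads, 4 of the 20 ratio tests passed: miR-15b-5p to miR-16-5p in both genotypes, miR-322-5p to miR-322-3p in wild type, and miR-195a-5p to miR-497a-5p in knockout cultures (exact permutation tests, adjusted p = 0.0397 for each). The thinned reads were drawn at random and the draw was not repeated. On all reads the last of these ratios had an exact permutation p of 0.103.

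**Figure D4:**
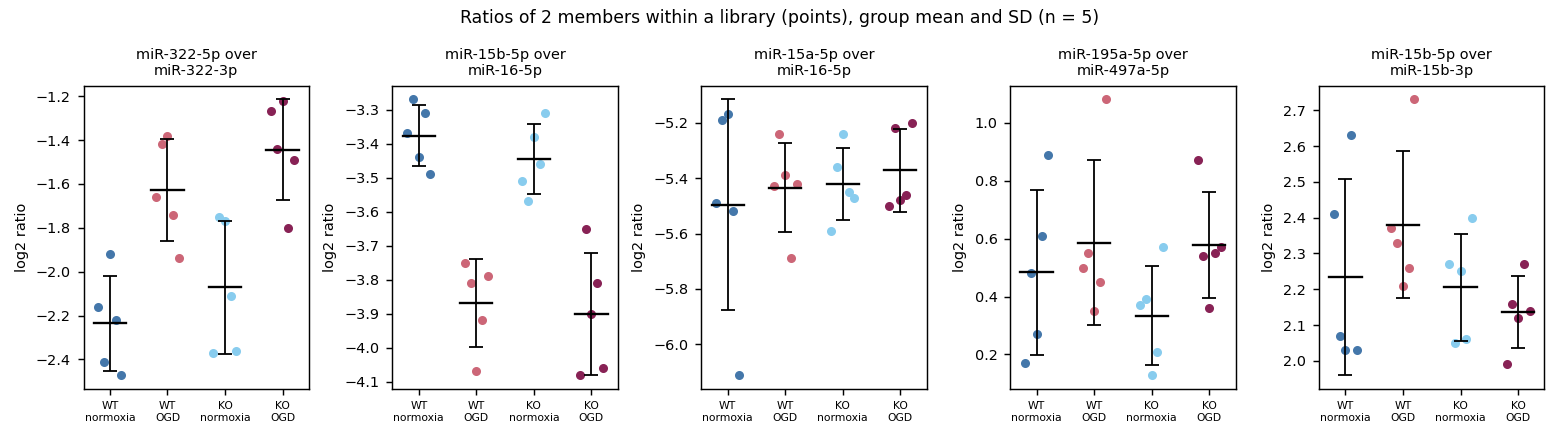
Log2 ratio of 2 members within each library (vertical axes, one panel per ratio) in the 4 groups; points are libraries, the bar is the group mean and the error bar the SD (n = 5). The miR-15b-5p to miR-16-5p ratio was lower in OGD libraries without overlap in both genotypes (means -3.38 and -3.87 in wild type, -3.45 and -3.90 in knockout), and the miR-322-5p to miR-322-3p ratio was higher with some overlap.

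The other forms of these hairpins and of the miR-322 cluster were read from a list of 16 names, of which 15 were in the tables. By CPM, 2 of the 15 were called higher and 0 lower in wild type, and 3 higher and 1 lower in knockout cultures (limma), with median log2 changes of 0.13 and 0.08. These shares were near those over all features (18.7% higher and 4.4% lower in wild type, 18.8% and 5.75% in knockout cultures). miR-503-5p, a cluster mate of miR-322 with a related but different seed, had a mean of 43.5 CPM in normoxia and 68.7 CPM after OGD in wild type (log2 change 0.66, SE 0.16, limma adjusted p = 0.00509). In knockout cultures the means were 43.8 and 71.0 CPM (0.68, SE 0.13, limma adjusted p = 0.00103). miR-542-3p, from the same cluster, had means of 98.1 and 258 CPM in wild type (1.40, SE 0.18, limma adjusted p = 8.54e-06) and of 88.8 and 187 CPM in knockout cultures (1.01, SE 0.24, limma adjusted p = 0.00478). Among other abundant forms of the cluster, miR-351-5p had a log2 change of 0.13 in both genotypes and miR-450a-5p of 0.05 and 0.08, none of them called (limma adjusted p from 0.353 to 0.824).

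On the passenger side of the hairpins, miR-16-2-3p, the arm opposite miR-16-5p in the Smc4 intron, was called higher in knockout cultures (log2 change 0.79, limma adjusted p = 0.0075) and had a log2 change of 0.41 in wild type (limma adjusted p = 0.337). The interaction between genotype and OGD was not called for any of the 15 forms (limma adjusted p from 0.99 to 1.0). miR-16-1-3p, the arm opposite miR-16-5p in Dleu2, had log2 changes of -0.07 and -0.23 and was not called (limma adjusted p = 0.803 and 0.315). In wild type the change of miR-16-1-3p was 0.05 without OGD replicate 5, and that of miR-16-2-3p was 0.26 without OGD replicate 4. miR-195a-3p was called lower in knockout cultures, going from 14.7 to 10.2 CPM (-0.54, limma adjusted p = 0.0492), and that call was lost in 9 of the 10 fits that left out 1 library (limma adjusted p from 0.00511 without OGD replicate 3 to 0.134). In wild type miR-195a-3p went from 13.2 to 9.19 CPM (-0.69, limma adjusted p = 0.154). OGD wild-type replicate 3, with 3 reads, was at 2.55 CPM, and without it the change was -0.32 (limma adjusted p = 0.358). miR-503-5p, miR-542-3p and, in knockout cultures, miR-16-2-3p were called in each of the 10 fits that left out 1 library. miR-542-3p was lower in knockout than in wild-type cultures after OGD by a log2 difference of -0.54 that was not called (limma adjusted p = 0.41), and was called without OGD knockout replicate 5 alone (-0.76, limma adjusted p = 0.00461). miR-15a-3p was near 3 CPM in normoxia and was not called.

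miR-497b, encoded on the strand opposite to Mir497 in the GENCODE annotation, was outside the list and is given after its values were seen. It held 2 to 29 reads in a library, with means of 2.32 CPM in normoxia and 5.13 CPM after OGD in wild type and of 2.32 and 1.93 CPM in knockout cultures. OGD wild-type replicate 3 was the highest library, at 10.2 CPM from 12 reads. The log2 difference between knockout and wild type after OGD was -1.15 (SE 0.40) and the interaction -1.13 (SE 0.46), neither of them called (limma adjusted p = 0.41 and 0.969). The change after OGD in wild type was 0.85 (limma adjusted p = 0.0764), 0.58 without that replicate (limma adjusted p = 0.169), and called without OGD replicate 2 alone (1.05, limma adjusted p = 0.0341).

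The arms were also set side by side within libraries, for the 12 hairpins of the members and the list with both arms in the tables. Of these, 2 (Mir15b and Mir322) are the tested ratios above, and the other 10 were read after their values were seen and are given without a test. The mean 5p to 3p ratio was higher after OGD in 9 of 12 hairpins in wild type and in 7 of 12 in knockout cultures, and lower in 3 and 5. In the 8 hairpins whose arms both averaged at least 10 reads a library, it was higher in 7 and 5 and lower in 1 and 3. miR-16-5p and miR-450a-5p are each the 5p arm of 2 of the 12 hairpins, so a change in either counts in both. Both hairpins of miR-16-5p are also among the 8. Other hairpins of the tables were not tallied, so these counts have no share over all miRNAs beside them. The mean log2 ratio of miR-195a-5p to miR-195a-3p went from 2.16 to 3.39 in wild type (3.05 without OGD replicate 3) and from 2.15 to 3.21 in knockout cultures. That of miR-16-5p to miR-16-1-3p went from 5.99 to 6.78 and from 5.91 to 6.90, while that of miR-16-5p to miR-16-2-3p went from 8.28 to 8.59 and from 8.25 to 8.22. Without OGD wild-type replicate 5 the wild-type difference of miR-16-5p to miR-16-2-3p was 0.14 in place of 0.31. The ratio of miR-503-5p to miR-503-3p went from 1.31 to 2.20 and from 1.61 to 2.53, and that of miR-15a-5p to miR-15a-3p from 3.46 to 4.0 and from 3.44 to 3.76. Mir542 and Mir450b went the other way in both genotypes, from -6.11 to -7.18 and from -6.22 to -7.25 for miR-542 and from -0.87 to -1.51 and from -0.70 to -1.41 for miR-450b. Without OGD replicate 3 of wild type these 2 differences were -0.49 for miR-542 in place of -1.07 and -0.40 for miR-450b in place of -0.64, and without OGD replicate 3 of the knockout that of miR-542 was -0.66 in place of -1.03. Leaving out 1 library changed the direction in wild type for miR-450a-5p to miR-450a-1-3p (without OGD replicate 3) and to miR-450a-2-3p (without OGD replicate 5), and in knockout cultures for miR-16-5p to miR-16-2-3p (without OGD replicate 2 or normoxic replicate 1 or 5), miR-351-5p to miR-351-3p (without OGD replicate 1 or 4 or normoxic replicate 1 or 4) and miR-450a-5p to miR-450a-2-3p (without OGD replicate 5). Many of the rarer arms rest on few reads, down to 3 reads of miR-195a-3p, 4 of miR-15a-3p and 0 of miR-542-5p, miR-351-3p and miR-450a-2-3p in a library.

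**Figure D5:**
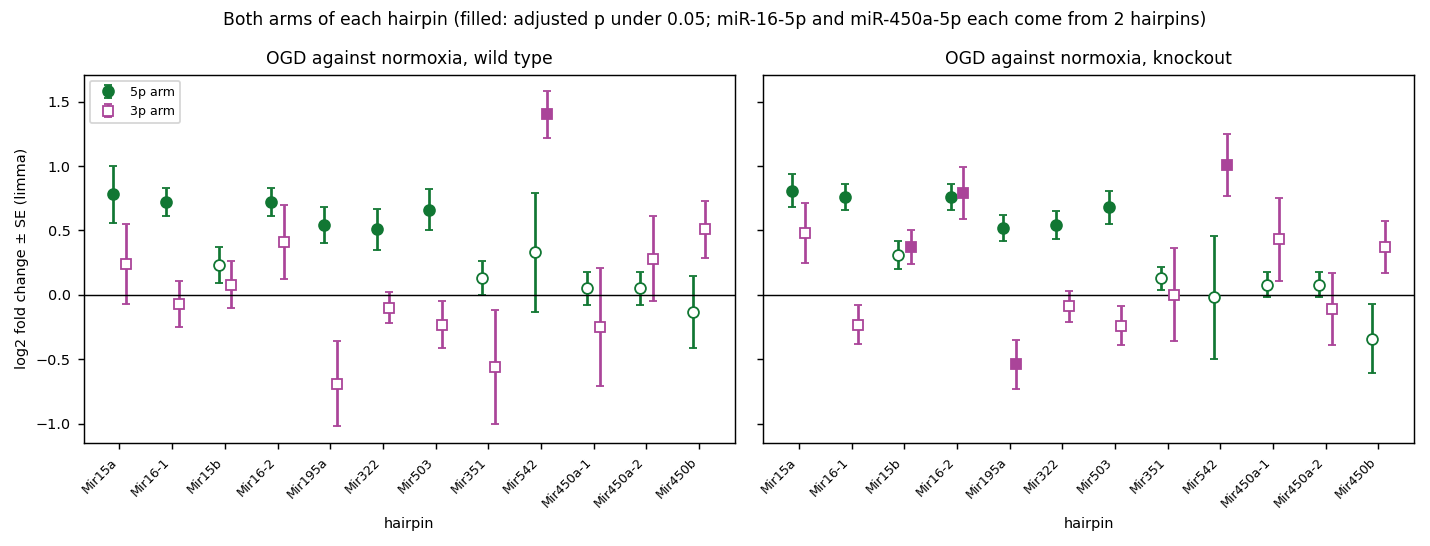
Log2 fold change after OGD with its SE (limma, vertical axis) for the 5p arm (circles) and 3p arm (squares) of 12 hairpins (horizontal axis), wild type on the left and knockout on the right; filled symbols have an adjusted p under 0.05, and miR-16-5p and miR-450a-5p are each drawn at both of their hairpins. The 3p arms of Mir195a (-0.69 and -0.54), Mir322 (-0.10 and -0.09) and Mir503 (-0.23 and -0.24) lay below 0 in both genotypes while their 5p arms lay above it by CPM (in wild type those of Mir195a and Mir322 were at -0.02 and -0.05 with the library median held still), and Mir542 had its 3p arm (1.40 and 1.01) above its 5p arm (0.33 and -0.02).

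RefSeq holds 4 other mouse mature miRNAs with the seed AGCAGCA, of which 3 were in the tables (miR-195b, miR-6342 and miR-6419). Their mean levels were at most 0.494 CPM in any group, below the floor of 3 reads in the shallow libraries, and 0 were called in either genotype.  Among features outside the family, the closest in their pattern over the 20 libraries were found by the root-mean-square difference of centred log2 levels, among 415 candidates. For miR-16-5p these were miR-30b-5p (0.12) and miR-362-3p (0.13), and for miR-15a-5p miR-362-3p (0.18) and miR-93-5p (0.19). miR-322-5p and miR-497a-5p were both close to miR-339-5p (0.13 and 0.15). miR-15b-5p was closest to miR-532-3p (0.14), miR-195a-5p to miR-361-5p (0.17), miR-15b-3p to miR-3068-5p (0.18) and miR-322-3p to miR-3074-5p (0.13). Within the family the closest pair was miR-16-5p and miR-322-5p (0.15), which come from different chromosomes, and the farthest was miR-15a-5p and miR-322-3p (0.56).

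miR-15 and miR-16 are also abundant in blood cells, so red-cell markers were read beside the members. miR-451a, which defines red cells, was at 0.375 to 3.48 CPM and miR-144-3p at 0.0 to 1.70 CPM in the 20 libraries, at or near the floor. The third marker, miR-486a-5p, which muscle and other tissues also make, was at 139 to 223 CPM. The sum of the 3 was 147 to 168 CPM in normoxic and 166 to 226 CPM in OGD wild-type libraries, and 140 to 177 and 181 to 199 CPM in knockout libraries. The part of miR-486a-5p-bearing cells in the family's change was not tested.

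The third question is whether losing ciRS-7 changed the family. In normoxia 0 of the 8 members were called between knockout and wild type (limma, adjusted p from 0.984 to 1.0), and 0.0% of 1481 features were called. Before adjustment limma put 47 features under 0.05, among the members miR-497a-5p alone. It averaged 52.8 CPM in knockout and 43.3 CPM in wild-type cultures, a log2 difference of 0.29 (SE 0.13, limma adjusted p = 0.984), and the ranges overlapped. For miR-16-5p the difference was 0.08 with a 95% interval of -0.14 to 0.30, and for the widest case, miR-15a-5p, 0.16 with an interval of -0.34 to 0.65. The sign of the small differences of miR-15a-5p, miR-16-5p, miR-15b-5p, miR-15b-3p and miR-322-5p turned when normoxic wild-type replicate 5 was left out.

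After OGD 0 of the 8 members were called between the genotypes (limma, adjusted p from 0.658 to 0.939), and again 0.0% of 1481 features. Before adjustment limma put 108 features under 0.05, among the members miR-15b-3p alone. It averaged 43.0 CPM in knockout and 34.2 CPM in wild-type cultures, a log2 difference of 0.33 (SE 0.16, limma adjusted p = 0.658). The intervals of miR-16-5p (0.12, 95% interval -0.08 to 0.32) and miR-322-5p (0.10, -0.17 to 0.37) leave room for differences of about that size. limma on the deposited values and limma voom on the reads also called 0 members in both genotype comparisons.

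Whether OGD acted differently on the genotypes was tested directly, as an interaction over the 20 libraries. It called 0 of the 8 members (limma adjusted p = 0.99 for each) and 0.0% of 1481 features, of which 74, none of them members, had an unadjusted p under 0.05, and limma voom also called 0 members. The interaction was 0.04 (SE 0.14) for miR-16-5p and 0.03 (SE 0.27) for miR-15a-5p on the log2 scale. For the forms called in one genotype only, it was -0.16 (SE 0.20) for miR-497a-5p and 0.29 (SE 0.21) for miR-15b-3p. With 1 library left out these ran from -0.23 to -0.08 (the latter without OGD knockout replicate 1) and from 0.21 to 0.37, so neither was shown to respond differently in the knockout.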

How the data were processed

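Small RNA was sequenced in 20 libraries (4 groups of 5), made with TRIzol, DNase treatment, a NEBNext small RNA kit and size selection, per the labels' protocols. The genome build was mm10, per the submitters' processing notes; the aligner, the counter and the miRBase release are not given in the sources used here. The authors deposited 6 tables, one per pair of groups. The deposited values, named as log CPM, reached beyond any log2 CPM and were treated as a score. From the values it was worked out that each score is reads times a library factor, raised to a power set per table, with the extremes of each group of 5 pulled in at quantiles 0.16 and 0.84. Undoing both gave whole reads for 100% of values (within 0.05 of a whole number), with 0 differences in 88520 comparisons between tables. No per-sample column was left unmapped. CPM used the authors' library factors.

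limma 3.58.1 (R 4.3.3, trend) was fitted on log2(CPM + 0.5) over all features of a table, two-sided, with Benjamini-Hochberg adjustment and a threshold of 0.05. Fold changes are on that scale, which understates changes of rare forms. Ratios used exact permutation tests. The members, the list of other forms of the hairpins and clusters, the marker lists and the tests were chosen with earlier results of these data known. Named features were the 8 members, those other forms, other features with the seed, miR-210-3p, and the 2 features most like each member; miR-497b was added after its values were seen. Hairpin positions came from GENCODE M21 and mature sequences from RefSeq. Alternatives were the deposited score itself, other scalings, a pseudocount of 2 CPM, a filter at a mean log2 level of 3, limma voom, 1 fit over 20 libraries, a replicate block, thinning to 1160582 reads and leaving out each library. Replicate numbers were not taken to pair the samples. No sample was left out.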

Additional observations from a re-analysis of the deposited data

Results flagged for a closer look

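Of 52 groups of 5 libraries examined (the members' levels and the ratios), 4 held a library whose gap to its neighbour was over 0.71 of the group's range, where chance flags about 1 in 20 groups. miR-15b-5p was at 109 CPM in normoxic wild-type replicate 5, below the other 4. miR-15b-3p was at 52.7 CPM in OGD knockout replicate 3, above the other 4. miR-195a-5p was at 60.3 CPM in normoxic knockout replicate 1, below the other 4. The log2 ratio of miR-195a-5p to miR-497a-5p was 1.08 in OGD wild-type replicate 5, above the other 4.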

How the results depend on the processing

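In wild type the count of 5 members called after OGD became 1 with the library median held still (miR-322-3p, lower), 1 with the median feature held still (miR-16-5p, added after the data were seen), 3 by quantile normalization (1 higher, 2 lower) and 1 with all libraries thinned to the smallest; leaving out 1 library gave 2 to 5, with 2 without OGD wild-type replicate 1, 2 or 3. In knockout cultures the 5 became 1 (lower) with the library median held still and 2 by quantile normalization (1 higher, 1 lower), and 4 to 6 with 1 library left out. The genotype and interaction counts were 0 in every alternative run. The other alternatives, the replicate block included, gave 4 to 7 in knockout cultures and 5 in wild type.

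Library median held still, then quantile normalization, turned these OGD changes in wild type: miR-15b-5p to -0.33 and -0.19, miR-15b-3p to -0.48 and -0.58 (limma adjusted p = 0.0298 for the latter), miR-195a-5p to -0.021 and -0.078, miR-497a-5p to -0.12 and -0.13, miR-322-5p to -0.054 and -0.076. In knockout cultures they turned miR-15b-5p to -0.20 and -0.024, miR-15b-3p to -0.14 and -0.17, and miR-497a-5p to -0.23 and -0.23. With the median feature held still miR-15b-3p in wild type was -0.11. Holding a median still subtracts 1 shift from every feature of a library, whereas quantile normalization moves features by different amounts, and the cause there was not tested.

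Differences near 0 also changed sign, none of them called, and the cause was not tested. For knockout against wild type in normoxia, miR-15b-5p was -0.069 on the deposited values, -0.025 with the library median and -0.0057 with the median feature held still, -0.015 by limma voom and -0.0051 thinned; thinned values were -0.018 for miR-195a-5p and -0.094 for miR-322-5p. The interaction of miR-195a-5p was 0.052 with the library median held still, 0.15 by quantile normalization and 0.11 thinned, and thinned values were -0.074 for miR-15a-5p and -0.055 for miR-322-3p. With 1 library left out, the normoxic genotype difference ran from -0.088 to 0.28 for miR-15a-5p, -0.11 to 0.063 for miR-15b-5p, -0.039 to 0.12 for miR-15b-3p, -0.0083 to 0.12 for miR-16-5p and -0.054 to 0.16 for miR-322-5p. The interaction ran from -0.10 to 0.27 for miR-15a-5p, -0.034 to 0.13 for miR-16-5p, -0.087 to 0.067 for miR-195a-5p, -0.064 to 0.15 for miR-322-5p and -0.058 to 0.079 for miR-322-3p.

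Of the ratio tests, 0 passed as reported and 4 passed after thinning, a random draw that was not repeated. Thinned, miR-322-5p to miR-322-3p between genotypes in normoxia was -0.056, miR-195a-5p to miR-497a-5p was -0.045 for OGD in wild type and 0.083 between genotypes after OGD, and miR-15a-5p to miR-16-5p was -0.11 for OGD in knockout cultures. With 1 library left out, ratios that crossed 0 ran from -0.082 to 0.069 (miR-15b-5p to miR-15b-3p, normoxia), -0.094 to 0.14, -0.079 to 0.16 and -0.00061 to 0.11 (miR-15a-5p to miR-16-5p for OGD in wild type, genotype in normoxia and genotype after OGD), -0.023 to 0.20 and -0.08 to 0.12 (miR-195a-5p to miR-497a-5p for OGD in wild type and genotype after OGD) and -0.094 to 0.014 (miR-15b-5p to miR-16-5p, genotype after OGD). The summed level of the 6 seed forms was higher after OGD by 0.67 and 0.71 on the log2 scale, and by 0.42 and 0.44 without miR-16-5p; with 1 library left out it ran from 0.58 to 0.71 and from 0.64 to 0.77.

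The labels give same-numbered libraries no shared animal or day. Within a genotype, 4 of 5 normoxia and OGD pairs deviated together (correlation over 0.1) in each genotype and the fifth did not (-0.17 in wild type, -0.21 in knockout). There, 7 of 10 wild-type and 5 of 10 knockout libraries correlated best with their own number, a hint from the data and not the design, so the numbers were not taken to pair the samples. With the replicate number as a block, 5 members were called in wild type and 6 in knockout cultures, where miR-15b-5p was added (limma adjusted p = 0.0116). Thinned, miR-15a-5p, miR-195a-5p, miR-497a-5p and miR-322-5p were no longer called in wild type.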
